A study of Mus musculus with 6 samples.

Results

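Digestive enzymes of the intestinal brush border were examined in adenomas of Apc1322T and ApcMin mice, across 9 genes chosen by name as a functional family: Lct, Sis, Treh, Alpi, Anpep, Enpep, Mme, Ace and Mep1a. The rule uses no measured value, although the family was proposed with earlier results of these data known. The 9 genes are among 34866 in the count table, and 9 of the 9 passed the filter on low counts that left 16536 genes for testing. RNA-seq was performed on excised adenomas, with 3 libraries from Apc1322T/+ mice and 3 from ApcMin/+ mice, all on a C57BL/6J background and 100 to 120 days old. Both genotypes carry 1 truncated germline Apc allele in every cell and no other engineered allele or treatment. The truncated protein made from Apc1322T is the longer of the pair and keeps some β-catenin binding, whereas that of ApcMin is shorter and lacks it. A sample was typically a pool of 2 to 3 RNA extractions from 1 mouse, so a library is not the RNA of a single adenoma, and it holds every cell type of the tissue taken. No normal mucosa was among the samples, and the labels do not give where along the intestine the adenomas lay.

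The brush border is the dense layer of microvilli on the luminal face of absorptive enterocytes. Its hydrolases are anchored in the microvillus membrane and carry out the last steps of digestion, splitting disaccharides, peptides and phosphate esters into products that neighbouring transporters absorb. Their genes are switched on as cells leave the crypt and mature on the villus, and many of them are used at unequal levels along the length of the small intestine. Lct encodes lactase, Sis sucrase-isomaltase and Treh trehalase, which split disaccharides. Alpi encodes intestinal alkaline phosphatase, which removes phosphate groups from dietary and bacterial substrates. Anpep encodes aminopeptidase N and Enpep glutamyl aminopeptidase, which take residues from the amino end of peptides. Mme encodes neprilysin, an endopeptidase, Ace encodes angiotensin-converting enzyme, a dipeptidyl carboxypeptidase, and Mep1a encodes the alpha subunit of meprin, a metalloendopeptidase.

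The 9 genes lie at 9 separate places of the GRCm38 genome, all protein coding in GENCODE M21. Lct is at chr1:128284756-128328318 and Alpi at chr1:87098002-87101606, both on the minus strand. On chromosome 3, Sis is at chr3:72888557-72967863 (minus), Mme at chr3:63241537-63386030 (plus) and Enpep at chr3:129269175-129332720 (minus). Treh is at chr9:44673233-44686305 (plus), Anpep at chr7:79821803-79861059 (minus), Ace at chr11:105967945-105989964 (plus) and Mep1a at chr17:43474324-43502812 (minus). The reads were 50 bases long, and 0 of the 50-base windows of Lct, Anpep, Enpep, Ace and Mep1a also occur in a transcript of another gene. The share was 2.4% for Alpi, with windows held in common with Akp3, Alppl2 and Akp-ps1, 1.45% for Treh and under that for Mme (0.402%) and Sis (0.135%). Counts of the 9 genes therefore rest mostly on sequence that no other gene holds.

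The 250 bases ahead of the RefSeq transcription start on GRCm38.p6 are shown for Lct, Sis and Alpi, since Lct varied most and Alpi least among the libraries, and Sis encodes the other major disaccharidase beside lactase. Capitals mark matches, on either strand, to 2 short motifs of factors known for enterocyte genes: TTTAT (CDX type) and GATAA (GATA type).
Lct, chr1:128328319-128328568, minus strand: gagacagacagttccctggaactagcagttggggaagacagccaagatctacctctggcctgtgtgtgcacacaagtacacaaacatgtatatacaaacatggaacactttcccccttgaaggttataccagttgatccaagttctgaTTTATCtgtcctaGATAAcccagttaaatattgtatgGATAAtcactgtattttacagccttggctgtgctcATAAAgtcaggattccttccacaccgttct
Sis, chr3:72967864-72968113, minus strand: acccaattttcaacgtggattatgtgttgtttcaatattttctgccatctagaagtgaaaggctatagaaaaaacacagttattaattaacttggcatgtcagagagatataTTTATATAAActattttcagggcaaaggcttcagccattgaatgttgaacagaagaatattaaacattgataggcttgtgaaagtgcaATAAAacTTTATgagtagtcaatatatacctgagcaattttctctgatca
Alpi, chr1:87101607-87101856, minus strand: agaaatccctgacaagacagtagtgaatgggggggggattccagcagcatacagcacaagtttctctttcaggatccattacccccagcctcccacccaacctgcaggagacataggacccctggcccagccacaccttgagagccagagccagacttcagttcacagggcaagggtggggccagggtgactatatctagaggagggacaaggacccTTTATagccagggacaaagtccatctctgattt

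The Lct window held TTTAT 102 and 30 bases ahead of the start and GATAA at 101, 89 and 65 bases, and the matches at 102 and 101 overlap each other. The Sis window held 4 TTTAT matches at 138, 133, 50 and 43 bases. The Alpi window held 1 TTTAT match, 33 bases from the start. All 9 genes were found in the RefSeq promoter table. Of the other 6, Enpep had 1 TTTAT and 1 GATAA match, 1 of the 2 listed starts of Ace had a TTTAT match, Mep1a had 2 GATAA matches, and Treh, Anpep and Mme had none. Over 32851 windows of the same length, 37.3% held TTTAT and 22.6% GATAA. Both motifs are thus common, and a match describes letters only.

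Libraries held 23132461 to 33518324 estimated counts, so that 3 counts correspond to 0.0895 to 0.130 CPM (counts scaled to the library total). Levels are given below as log2 CPM after TMM scaling with a prior count of 2. Of the marker lists, the epithelial genes summed to 11950 to 13360 CPM in Apc1322T and 9863 to 11000 in ApcMin, and the 10 villus enterocyte genes to 17130 to 28700 and 9263 to 21260. The colon genes Car1 and Hoxb13 had at most 2 and 14 counts in any library. Pancreatic genes summed to 121.6 CPM in ApcMin replicate 1 and to at most 0.919 in the others. Counts per gene do not show which truncated Apc allele a mouse carries, so the genotype labels were not checked by them. The labels give numbered replicates per genotype and do not name the mouse behind each.

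For each disaccharidase the range among the 3 libraries of at least 1 genotype was wider than the difference between the genotype means. Lct had log2 CPM of 6.40, 9.07 and 9.59 in Apc1322T replicates 1 to 3 and 6.29, 7.72 and 2.63 in ApcMin replicates 1 to 3. ApcMin replicate 3 stood lowest, at 193 counts (6.10 CPM), and Apc1322T replicate 3 highest, at 17541 counts (768 CPM), a 126-fold span, while Apc1322T replicate 1 lay between ApcMin replicates 1 and 2. The means were 8.35 ± 1.71 in Apc1322T and 5.54 ± 2.63 in ApcMin (SD, n = 3 each).

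**Figure D1:**
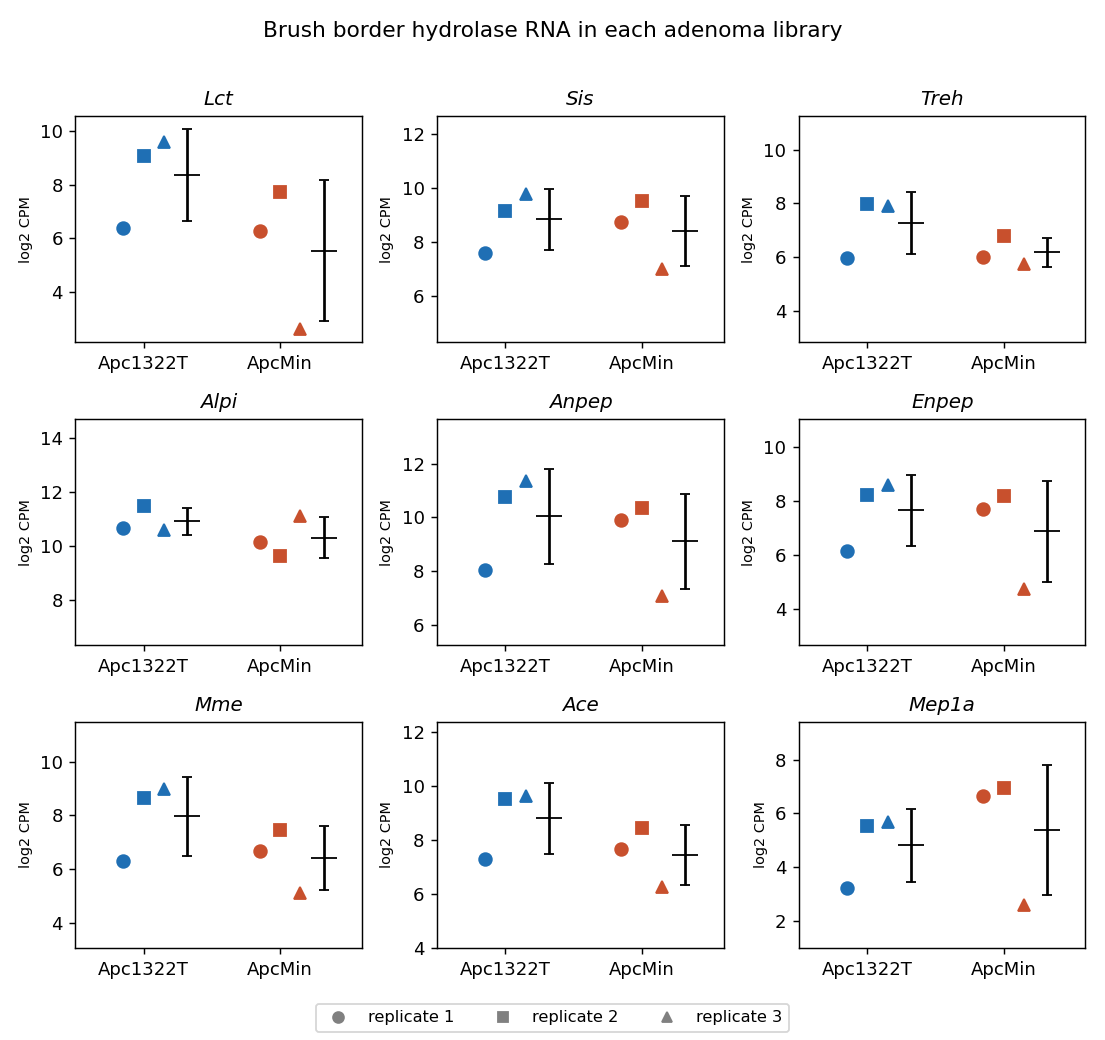
Log2 CPM (vertical axes, each spanning the same number of log2 units) of the 9 enzyme genes in the 3 Apc1322T and 3 ApcMin libraries, 1 marker per library, with the group mean and SD beside the points. Marker shape gives the replicate number, which is not used here to pair libraries across genotypes. In all 9 panels the genotypes overlap, and ApcMin replicate 3 is the lowest point in 8 of them, Alpi being the exception.

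Sis had log2 CPM of 7.59, 9.16 and 9.77 in Apc1322T and 8.76, 9.52 and 6.99 in ApcMin. The genotypes interleaved, with ApcMin replicate 2 above 2 of the 3 Apc1322T libraries. Treh had 5.96, 7.98 and 7.92 in Apc1322T and 6.00, 6.77 and 5.77 in ApcMin. Its Apc1322T replicates 2 and 3 lay above every ApcMin library, and replicate 1 lay among them.

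Alpi behaved unlike the other 8 enzymes. Its log2 CPM was 10.67, 11.49 and 10.58 in Apc1322T and 10.15, 9.62 and 11.12 in ApcMin. ApcMin replicate 3, lowest for every other enzyme, was here second highest of the 6, and ApcMin replicate 2 was lowest. The span was 3.67-fold (1.87 on the log2 scale), the smallest of the 9.

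Both aminopeptidases showed the same order of libraries. Anpep had log2 CPM of 8.04, 10.75 and 11.35 in Apc1322T and 9.91, 10.34 and 7.09 in ApcMin. Enpep had 6.16, 8.24 and 8.59 in Apc1322T and 7.72, 8.18 and 4.74 in ApcMin. For each gene the 2 lowest libraries were ApcMin replicate 3 and Apc1322T replicate 1, 1 from each genotype.

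The peptidases Mme and Ace had the same order of libraries as Anpep and Enpep. Mme had log2 CPM of 6.30, 8.66 and 8.98 in Apc1322T and 6.68, 7.45 and 5.11 in ApcMin. Ace had 7.30, 9.53 and 9.63 in Apc1322T and 7.66, 8.45 and 6.24 in ApcMin. In Mme and Ace, as in Anpep and Enpep, Apc1322T replicates 2 and 3 lay above all ApcMin libraries. Apc1322T replicate 1 lay below ApcMin replicates 1 and 2 in each of them.

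Mep1a was the enzyme with its highest levels in ApcMin. It had log2 CPM of 3.25, 5.55 and 5.67 in Apc1322T and 6.64, 6.93 and 2.59 in ApcMin. ApcMin replicates 1 and 2 held 3563 and 3104 counts, above every Apc1322T library (257, 982 and 1158), whereas ApcMin replicate 3 held 188, the fewest of the 6. Mep1b, the other meprin subunit and here chosen after its values were seen, had 7.66, 9.10 and 9.32 in Apc1322T and 8.28, 8.54 and 6.77 in ApcMin, with both of the ApcMin libraries that were high for Mep1a below the 2 higher Apc1322T libraries.

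The comparison between genotypes asks whether the 2 Apc truncations, which leave different β-catenin binding, come with different enzyme RNA in adenomas. No enzyme passed the test: 0 of the 9 had an adjusted p under 0.01, the study's threshold, in the quasi-likelihood test of edgeR with Benjamini-Hochberg adjustment over all tested genes. Of all tested genes 0% (0 of 16536) passed it. At an unadjusted p under 0.05, 15.1% of all genes passed (2495), 7.49% higher and 7.6% lower in ApcMin, against 0 of the 9 enzymes. DESeq2 called 1.11% of its genes (194 of 17503) and 0 of the 9 enzymes. The libraries of the genotypes did not overlap for 21% of tested genes and for 0 of the 9. The fitted log2 fold change, ApcMin minus Apc1322T, was negative for 8 enzymes and positive for Mep1a, with a median of -0.94 over the 9 against 0.017 over all tested genes. With library totals in place of TMM, these medians were -0.74 and 0.17.

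Treh had the smallest unadjusted p of the 9, with a log2 fold change of -1.29 ± 0.56 (SE), a 95% interval from -2.64 to 0.059 and an adjusted p of 0.340 (edgeR). The largest fold change was that of Lct, -2.24 ± 1.27, with an interval from -5.31 to 0.83 and an adjusted p of 0.425 (edgeR). Mme gave -1.66 (interval -3.64 to 0.32) and Ace -1.43 (-3.26 to 0.39). These 4 intervals reach from strongly negative values to values above 0, so that 3 libraries per genotype give only an imprecise size for any difference. Intervals were centred nearer 0 for Anpep (-0.94, from -3.39 to 1.51), Alpi (-0.54, from -1.61 to 0.52), Enpep (-0.52, from -2.76 to 1.71) and Sis (-0.34, from -2.14 to 1.46). Mep1a gave 1.09 (from -1.49 to 3.68). The interval of Alpi was the narrowest of the 9.

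**Figure D2:**
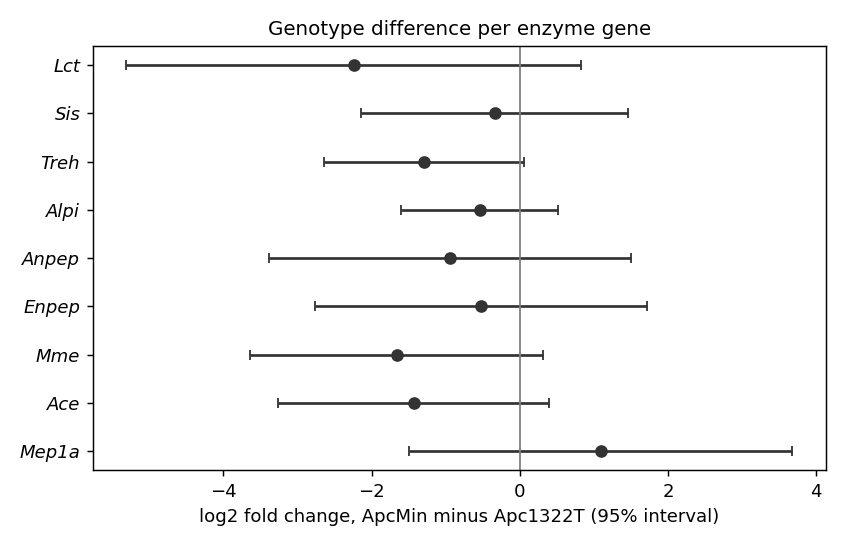
Fitted log2 fold change of each enzyme gene, ApcMin minus Apc1322T (horizontal axis), with its 95% interval from the quasi-likelihood fit over 3 libraries per genotype. Every interval includes 0, and that of Lct is the widest, from -5.31 to 0.83.

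The sign of 1 enzyme and the overlap of several rest on single libraries. Each library was left out in turn, and the fold change stayed negative in 6 of 6 fits for Lct (-3.46 to -1.67), Treh (-1.70 to -0.996), Alpi (-1.07 to -0.20), Anpep (-1.48 to -0.32), Enpep (-1.09 to -0.014), Mme (-2.26 to -1.22) and Ace (-2.03 to -1.04). Mep1a stayed positive (0.57 to 1.64). Sis turned to 0.17 without Apc1322T replicate 3 and to 0.096 without ApcMin replicate 3. Without Apc1322T replicate 1, 6 of the 9 enzymes (Lct, Treh, Anpep, Enpep, Mme and Ace) were lower in all ApcMin than in both remaining Apc1322T libraries, beside 47.7% of all tested genes that did not overlap in that comparison of 3 with 2. Without ApcMin replicate 3, Alpi was lower and Mep1a higher in ApcMin with no overlap (2 of 9, beside 29.2% of all tested genes). Without ApcMin replicate 2, Lct was lower with no overlap (1 of 9, beside 31.7%). The smallest adjusted p in any of these fits was 0.0710 (edgeR), for Treh without Apc1322T replicate 1.

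Anpep, Enpep, Mme and Ace shared a full order of libraries that crossed the genotypes, and most of the other enzymes shared its lowest libraries. For Lct, Treh, Anpep, Enpep, Mme and Ace, Apc1322T replicates 2 and 3 lay above all ApcMin libraries, so their orders are not free of genotype. The part of genotype in these orders was not tested. ApcMin replicate 3 was the lowest library for 8 of the 9 enzymes, compared with 19.38% of all tested genes. The pair of ApcMin replicate 3 and Apc1322T replicate 1 made up the 2 lowest libraries for 7 of the 9, compared with 11.43% of tested genes. The exceptions were Lct, where ApcMin replicate 1 was second lowest, and Alpi. The highest library was Apc1322T replicate 2 or 3 for 8 of the 9, compared with 34.6% of tested genes, the exception being Mep1a. These orders are a description, since the libraries named were picked after the values were seen. The 9 genes are also not independent of one another within a library.

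The spread itself was large. The distance from the lowest to the highest library was 6.96 on the log2 scale for Lct, and 0.151% of tested genes had a range as wide. It was 4.34 for Mep1a, 4.26 for Anpep, 3.87 for Mme, 3.86 for Enpep and 3.39 for Ace, ranges reached by 1.36% to 2.88% of tested genes. For Sis (2.78), Treh (2.22) and Alpi (1.87) the share was 5%, 8.36% and 12.3%. The median range over all tested genes was 0.65, with quartiles of 0.38 and 1.26, and 9 of the 9 enzymes lay above the median. In bulk RNA, fewer cells of the enterocyte type and less RNA per cell cannot be told apart.

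**Figure D3:**
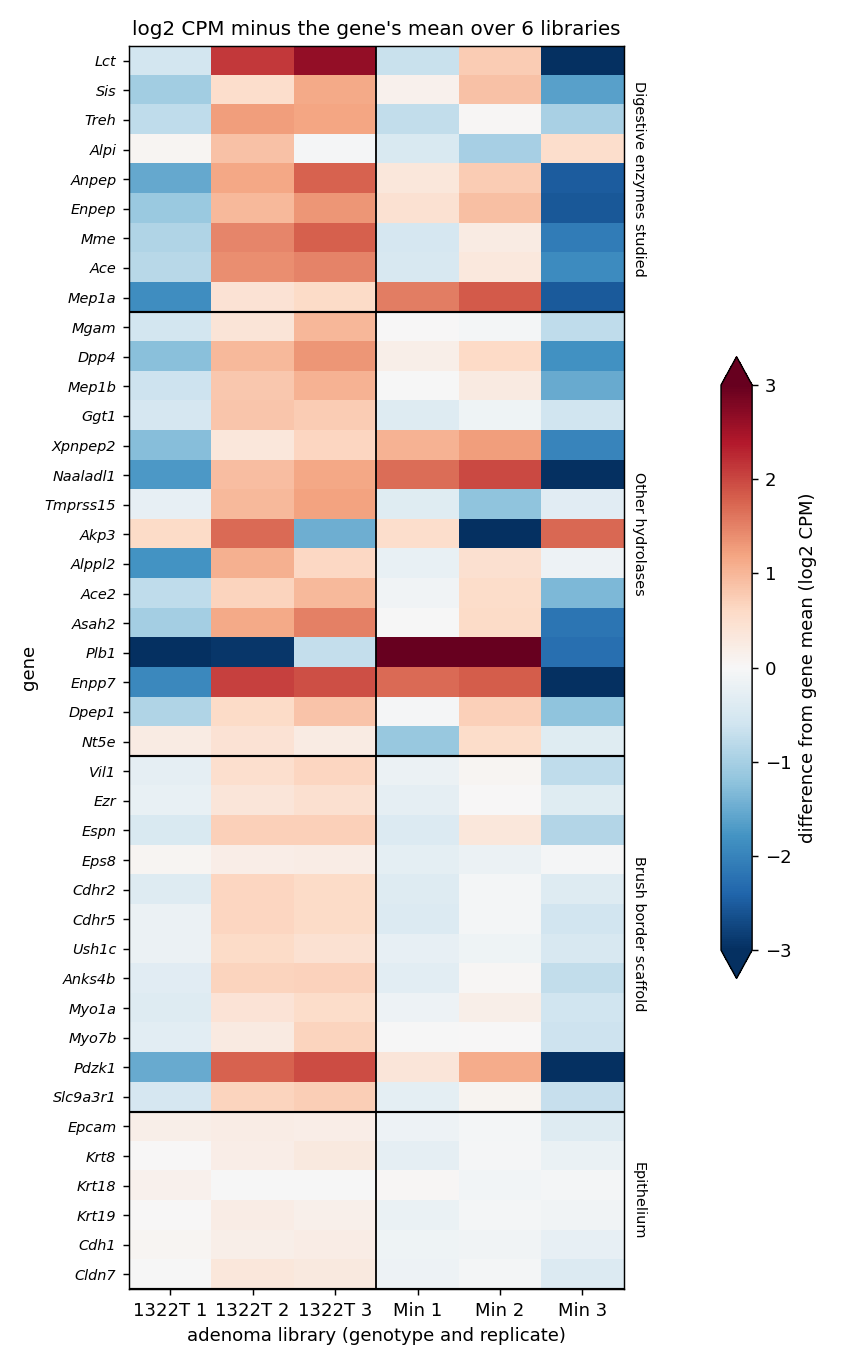
Colour map of log2 CPM minus each gene's mean over the 6 libraries (red higher, blue lower, colour limited at 3 in each direction), with genes as rows in 4 groups and libraries as columns, Apc1322T to the left of the vertical line. The enzyme rows are blue in Apc1322T replicate 1 and ApcMin replicate 3 and red in Apc1322T replicates 2 and 3, except Alpi, highest in Apc1322T replicate 2 and ApcMin replicate 3, and the epithelial rows at the bottom are pale in all columns.

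Within a library some enzymes kept a near constant ratio. The difference in log2 CPM between Mme and Ace was -1.01, -0.87 and -0.65 in Apc1322T and -0.973, -0.996 and -1.14 in ApcMin, a range of 0.48, the narrowest of the 36 pairs. For Anpep and Enpep it was 1.88, 2.51 and 2.76 in Apc1322T and 2.19, 2.16 and 2.36 in ApcMin, a range of 0.88. At the other extreme, the difference between Lct and Alpi ran over 7.50 log2 units, from -8.50 in ApcMin replicate 3 to -0.999 in Apc1322T replicate 3. The 2 tight pairs join peptidases with peptidases, and the widest joins a disaccharidase with the phosphatase. The other pairs did not sort by class. Treh with Ace (1.24) and Sis with Enpep (1.34), each a disaccharidase with a peptidase, had narrower ranges than the peptidases Enpep and Ace (1.58). The disaccharidases Lct and Treh had a range of 4.81.

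Ratios did not overlap between the genotypes for 10 of the 36 pairs, beside 20% of all pairs of tested genes. The share is not far from that of all pairs, so the count is not a result about the enzymes. All of these pairs but Sis with Mme and Sis with Ace held Lct or Mep1a. Lct minus Sis was -1.19, -0.083 and -0.18 in Apc1322T and -2.47, -1.80 and -4.36 in ApcMin, so that all 3 ApcMin libraries held less Lct for their Sis. Lct was likewise lower in ApcMin relative to Anpep, Enpep and Mep1a. Mep1a was higher in ApcMin relative to 5 of the 8 other enzymes, namely Lct, Anpep, Enpep, Mme and Ace. Ace minus Mep1a, for example, was 4.05, 3.99 and 3.97 in Apc1322T and 1.02, 1.52 and 3.65 in ApcMin. Sis was higher in ApcMin relative to Mme (1.30, 0.50 and 0.79 against 2.08, 2.06 and 1.88) and relative to Ace. These counts carry no test, and pairs that hold the same gene are not separate evidence.

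Levels of different genes were compared per kilobase of merged exon. Alpi was the most abundant of the 9 in 6 of 6 libraries, at 862 ± 320 CPM per kb in Apc1322T and 592 ± 322 in ApcMin (SD, n = 3 each). Anpep was second in 6 of 6, at 371 ± 287 and 193 ± 145. The next 5 means over all 6 libraries, Ace (73.1), Sis (65.4), Treh (63.8), Enpep (45.6) and Lct (43.9), lay within a narrower band than each of these genes spanned among libraries, and Mme (18.8) and Mep1a (16.1) were last. The order of these 7 changed from library to library, with Lct at rank 4 in Apc1322T replicate 3 and at rank 9 in ApcMin replicate 3.

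The mix of the 9 enzymes therefore differed among libraries. Alpi made up 78.8%, 56.3% and 34% of their summed CPM per kb in Apc1322T and 51.6%, 33.2% and 90.3% in ApcMin. Anpep made up 7.16%, 19.1% and 32.7% in Apc1322T and 24.8%, 31.0% and 3.13% in ApcMin. Lct contributed 1.49%, 3.85% and 6.20% in Apc1322T and 1.29%, 3.25% and 0.0902% in ApcMin. The 2 libraries with low peptidase RNA were thus the 2 with the largest share of phosphatase.

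**Figure D4:**
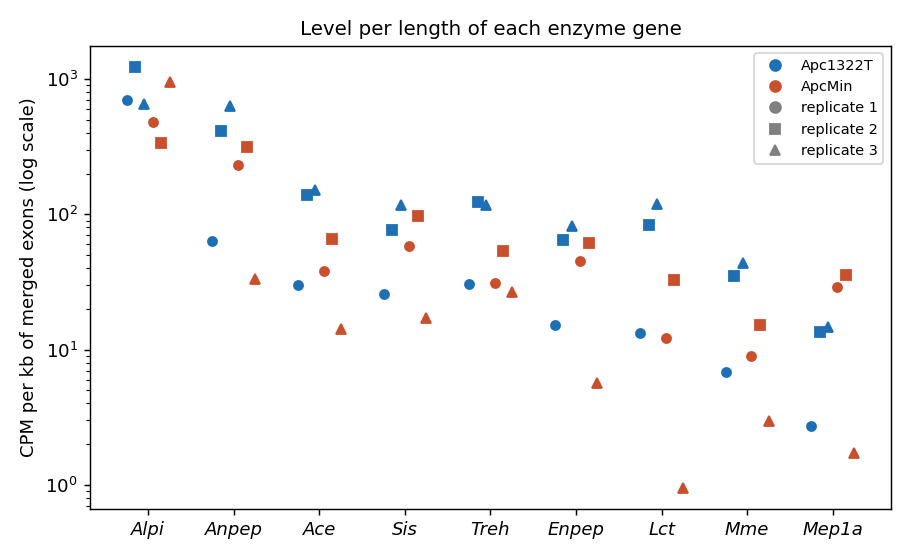
CPM per kb of merged exons (vertical axis, log scale) of each enzyme gene, 1 point per library, with colour for genotype and marker shape for replicate number, genes ordered by their mean over the 6 libraries. Alpi and Anpep are first and second in every library, and the Lct points run from 0.952 in ApcMin replicate 3 to 120 in Apc1322T replicate 3.

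Most of the other hydrolases of the same membrane had the same lowest libraries as most of the enzymes. Of 16 listed, 15 were tested (Folh1 had 0 counts in every library), and 0 passed the adjusted threshold. At an unadjusted p under 0.05 (edgeR), 1 was higher and 1 lower in ApcMin, beside 7.49% and 7.6% of all tested genes. The median log2 fold change was -0.48, with 12 of 15 negative. ApcMin replicate 3 and Apc1322T replicate 1 were the 2 lowest libraries for 10 of the 15. Tmprss15, which encodes enteropeptidase, the activator of trypsinogen, had the most negative value (-1.36, adjusted p = 0.286 by edgeR), with log2 CPM of 4.99, 6.22 and 6.44 in Apc1322T and 4.86, 4.02 and 4.90 in ApcMin and so no overlap. Asah2, a neutral ceramidase, followed at -1.04. Plb1, a phospholipase of the brush border, had the most positive value, 5.85 (adjusted p = 0.282 by edgeR), from 6, 5 and 31 counts in Apc1322T and 2284, 1013 and 13 in ApcMin. Naaladl1, a peptidase, had a fitted value of 0.69 with a lower mean log2 CPM in ApcMin (6.09) than in Apc1322T (6.34), with 1 ApcMin library at 2.18 and the others at 7.89 and 8.19.

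Part of the pattern of Alpi recurred in Akp3, a second intestinal alkaline phosphatase gene, here chosen after its values were seen. Akp3 had log2 CPM of 10.18, 11.29 and 8.13 in Apc1322T and 10.12, 6.57 and 11.33 in ApcMin, highest in Apc1322T replicate 2 and ApcMin replicate 3 and lowest in ApcMin replicate 2, as Alpi was. Its span was wider, 27.2-fold against 3.67-fold for Alpi. Its second lowest library was Apc1322T replicate 3, whereas that of Alpi was ApcMin replicate 1. Cybrd1 and Slc40a1, an iron reductase and the iron exporter of the proximal small intestine, were among the proximal markers and also had their highest value in ApcMin replicate 3 and their lowest in ApcMin replicate 2. Cybrd1 had 10.12, 9.54 and 7.16 in Apc1322T and 9.40, 6.73 and 10.69 in ApcMin. The other 3 proximal markers did not share both of these features. Onecut2, with a range of 0.39, was lowest in ApcMin replicate 2 (7.25). It was highest in Apc1322T replicate 2 (7.64) and next in ApcMin replicate 3 (7.61), as Alpi was. Gata4 was lowest in ApcMin replicate 1 (5.96), close to ApcMin replicate 2 (5.97), and highest in Apc1322T replicate 2 (6.96). Fabp1 was lowest in ApcMin replicate 1 (8.13), with ApcMin replicate 3 (8.39) below ApcMin replicate 2 (9.60). The 5 proximal markers, with a median log2 fold change of -0.031, together summed to 2498, 2868 and 1796 CPM in Apc1322T and 1510, 1167 and 2820 in ApcMin.

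Distal small intestine markers had another order of libraries than the proximal markers. Their 5 genes summed to 73.0, 170.4 and 209.9 CPM in Apc1322T and 360.3, 366.3 and 65.7 in ApcMin. These sums ranked the libraries as Mep1a did. ApcMin replicate 3 and Apc1322T replicate 1 were the 2 lowest libraries for 4 of the 5 genes, as they were for most of the enzymes. Fabp6, an ileal bile acid binding protein, had 13, 13 and 14 counts in Apc1322T and 4560, 2105 and 31 in ApcMin (log2 fold change 6.95, adjusted p = 0.273 by edgeR), and Slc10a2, the ileal bile acid transporter, had a value of 3.04. The other 3 distal markers were near 0, Slc51a at -0.017, Slc51b at -0.027 and Cubn at 0.052, and the median of the 5 was 0.052. The 2 ApcMin libraries with high Fabp6 were those with high Mep1a and Plb1 and with the lowest Alpi. The part of these regional markers in the enzyme values was not tested.

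Genes of the brush border scaffold, which bundle the actin core and link the microvilli, mostly varied over a narrower range. All 12 listed were tested, and 0 passed the adjusted threshold. At an unadjusted p under 0.05 (edgeR), 3 were lower in ApcMin, beside 7.6% of all tested genes. Fold changes were negative for 12 of 12, with a median of -0.60. The median range over libraries was 1.26 against 3.86 for the 9 enzymes. Pdzk1, a scaffold protein for membrane transporters, gave -1.12 and Anks4b, of the complex that links microvillus tips, -0.73. Pdzk1 was the exception in spread, with a range of 5.67, wider than that of every enzyme but Lct (6.96). The same low pair of libraries was found for 8 of the 12. Villus enterocyte markers gave 10 of 10 negative fold changes, a median of -0.83 and 0 past the adjusted threshold, with Fabp1, a fatty acid binding protein, at -1.32 and Rbp2, a retinol binding protein, at -1.03.

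Of 15 transcription factors of enterocytes, 0 passed the adjusted threshold, with 13 of 15 fold changes negative and a median of -0.33. At an unadjusted p under 0.05 (edgeR), 5 were lower in ApcMin, beside 7.6% of all tested genes. Hnf4g, a nuclear receptor of enterocytes, gave -0.74 and had log2 CPM of 4.79, 6.45 and 6.52 in Apc1322T and 5.54, 5.82 and 4.39 in ApcMin, the order of libraries seen for Anpep, Enpep, Mme and Ace. Creb3l3, a factor of lipid metabolism, gave -0.68. Prdm1, a repressor of the adult enterocyte programme before weaning, gave a positive value of 0.030. Factors of the 2 motif types marked in the promoters spread less than the enzymes: Cdx2 gave -0.50, without overlap between genotypes, and Gata4 had 6.34, 6.96 and 6.60 in Apc1322T and 5.96, 5.97 and 6.58 in ApcMin. Cdx2 and Gata4 were chosen here for the motifs, after their values were seen.

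Marker lists of the epithelium and of other cells were read beside the enzymes, and 0 genes of these lists passed the adjusted threshold. The 6 epithelial genes had a median fold change of -0.33, all 6 negative, and a range over libraries of at most 0.75. The genotypes did not overlap for 5 of them, beside 21% of all tested genes. The 6 fibroblast genes were all positive with a median of 1.00 and summed to 604 to 1523 CPM in Apc1322T and 983 to 3304 in ApcMin. The median was 0.90 for 6 myeloid genes (37.0 to 63.7 against 42.4 to 154 CPM), 0.63 for 5 smooth muscle genes (115 to 228 against 244 to 350), 0.50 for 6 pericyte genes (104 to 161 against 145 to 186) and 0.28 for 6 endothelial genes (105 to 170 against 159 to 224). In these 5 lists every fold change was positive, and the summed levels of the genotypes overlapped for all but the smooth muscle genes. Within the genotypes, the fibroblast sum was highest in Apc1322T replicate 1 (1523 CPM) and ApcMin replicate 1 (3304 CPM), whereas the enzymes were lowest in Apc1322T replicate 1 and ApcMin replicate 3. The part of these cells in the enzyme values was not tested.

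The genes most like Lct, Sis and Alpi were sought by the root mean square distance between centred log2 CPM over the 6 libraries, members left out. For Lct, whose own root mean square deviation was 2.29, the nearest were Slc5a12 (0.60), a monocarboxylate transporter, Mbl2 (0.65), a mannose-binding lectin, Dnase1 (0.68), a deoxyribonuclease, Pdzk1 (0.72) and Slc5a4b (0.74), of the sodium-glucose transporter family. None of the 5 came closer than 0.60, and Slc5a12 had log2 CPM of 1.06, 4.78 and 5.39 in Apc1322T and 2.69, 3.13 and -2.57 in ApcMin. In ApcMin replicate 3, Slc5a12 and Mbl2 (-2.87) lay near the floor of 3 counts, where the prior count shapes the value. For Sis (own deviation 1.01) the nearest included Slc6a19 (0.15), the neutral amino acid transporter of the brush border, Cyp4f14 (0.16), Edn3 (0.16) and Clec2h (0.18). Slc6a19 had 6.44, 8.34 and 8.73 in Apc1322T and 7.59, 8.36 and 6.17 in ApcMin, the same order of the 6 libraries as Sis. For Alpi (own deviation 0.61) they were Slc19a3 (0.12), a thiamine transporter, Gm3776 (0.14), Ighv1-39 (0.14), an immunoglobulin segment of a family whose members share sequence, Grk1 (0.15) and Gsta2 (0.15), a glutathione S-transferase. Each profile holds 6 values only, and likeness over so few libraries is a description.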

How the data were processed

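Estimated counts per gene were deposited by the authors for 6 libraries. The submitters' notes and the methods name Salmon 0.9.1 against the GRCm38 transcriptome, tximport 1.6.0 and DESeq2 1.18.1, with single-end stranded reads of 50 bases. The counts were not normalised, and their precision covers counting error only. Per the methods, a sample typically pooled 2 to 3 RNA extractions from 1 mouse. Replicate numbers name libraries, and p-values weigh the genotype difference against the spread between libraries of the same genotype.

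Counts were rounded, filtered with filterByExpr (minimum count 10, minimum total count 15), scaled by TMM and compared in edgeR 4.0.16 (R 4.3.3) by glmQLFit with robust estimation and glmQLFTest, with genotype as the single term and Benjamini-Hochberg adjustment at 0.01. Standard errors are the log2 fold change divided by the root of F. DESeq2 1.42.0 and limma-voom (limma 3.58.1) served as alternatives. The tests were tried on simulated data. Of 34866 genes, 34652 had a GENCODE M21 entry. Members and lists were chosen with earlier results of these data known. Besides the 9 genes, the text names those with the 2 largest log2 fold changes in each direction of the enzyme, scaffold, factor, enterocyte and regional lists where described, the 5 nearest profiles of Lct, Sis and Alpi, and genes said to be chosen after their values were seen. A few genes that this rule selects are not reported here.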

Additional observations from a re-analysis of the deposited data

How the results depend on the processing

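With 3 libraries per genotype and SDs of up to 2.63 log2 CPM (Lct in ApcMin), the spread between libraries and not the depth limits these comparisons, since the lowest enzyme value still rests on 188 counts. In every alternative run, 0 of the 9 enzymes passed the adjusted threshold, including RLE, upper quartile and library total scaling, limma-voom, no robust estimation, both other filters and a threshold of 0.05. The median log2 fold change of the 9 stayed negative throughout, from -1.48 to -0.71. Over all genes, 194 passed with DESeq2's Wald test, 1 without the filter and 1 at a threshold of 0.05, where 0 had passed. Leaving out each library in turn gave 0 to 1 genes past the adjusted threshold (1 without ApcMin replicate 3) and 1180 to 4117 genes at an unadjusted p under 0.05 (4117 without Apc1322T replicate 1, 1180 without replicate 2 and 1472 without replicate 3 of Apc1322T, and 1649 without ApcMin replicate 3). It gave 0 to 6 enzymes without overlap between genotypes (6 without Apc1322T replicate 1, beside 47.7% of all tested genes, 1 without ApcMin replicate 2, beside 31.7%, and 2 without ApcMin replicate 3, beside 29.2%). The log2 fold change of Sis ranged from -0.96 to 0.17 and reversed without Apc1322T replicate 3 (0.17) and without ApcMin replicate 3 (0.096). The cause of these changes was not tested. With the replicate block, 0 enzymes passed, 2113 genes had an unadjusted p under 0.05 and the median of the 9 was -0.75. Same-numbered libraries had r of -0.014, 0.16 and -0.29 for deviations from the group means over genes. Differently numbered libraries had r from -0.36 to 0.33. The main fit did not pair libraries by number. Correlations over so few libraries cannot exclude a shared origin of same-numbered libraries.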

Other observations

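Crypt stem and Wnt-active cell markers were present in every library. Of 6 genes tested, 0 passed the adjusted threshold, the median log2 fold change was -0.16, and their summed level was 1001, 716 and 738 CPM in Apc1322T and 646, 787 and 810 CPM in ApcMin. The 2 libraries with the least peptidase RNA, Apc1322T replicate 1 and ApcMin replicate 3, had the highest of these sums in their genotype. In ApcMin the margin was small, 810 against 787 CPM. Among ApcMin libraries, Lgr5, Nkd1 and Sp5 were highest in replicate 3, Axin2 in replicate 2, and Ascl2 and Smoc2 in replicate 1. T and B lineage genes had a median of 0.13 over 5 tested and blood genes a median of 0.18 over 5, with 0 past the threshold in either list. Blood genes summed to 1063 CPM in Apc1322T replicate 1 and 982 CPM in ApcMin replicate 1, against 360 to 509 CPM in the other 4 libraries. Of the 6 colon genes, 4 were tested, with a median of 0.51 and 0 past the threshold.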
